A study of Mus musculus with 2 samples.

Results

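Deep intronic accessible regions are stretches of open chromatin inside the introns of protein-coding genes and far from any start of a coding transcript. They were taken from the conservative list of peaks that the depositors found reproducible between both replicates. Overlapping peaks were merged, each merged region was placed by its strongest summit, and a region was kept when that summit lay in the body of a protein-coding gene, in no annotated exon and over 10 kb from every protein-coding transcription start site (TSS). This left 3115 of 20080 regions, or 15.5% (95% Wilson interval 15.02 to 16.02%). The intervals given here and below cover counting error only. The data are ATAC-seq, in which a transposase cuts and tags accessible DNA, from 2 biological replicates of 50000 cells each. All cells were G1E-ER4, a single male mouse erythroid line on the C57BL/6J background, exposed to 10 nM 17Beta-estradiol for 24 h. G1E cells lack functional GATA1, and the ER4 clone carries GATA1 fused to the ligand-binding part of an estrogen receptor, so that estradiol switches the factor on and starts terminal red cell differentiation. Both replicates share this one condition and this one clone, so nothing below compares treated with untreated cells. The read depth behind the lists is unknown, and p-values of the peaks are those of the depositors.

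Introns hold many enhancers, which are short clusters of transcription factor sites that raise transcription of a gene at a distance. In red cell precursors GATA1 binds the letters AGATAA and related sequences, often in a complex with TAL1 and its E-protein partners, whose E-box then lies a fixed number of bases from the GATA letters. CTCF binds a longer and more constant sequence and marks the anchors of chromatin loops, while KLF1 binds the letters CCACACCC and NF-E2 a longer form of the AP-1 letters. An intronic enhancer can serve its host gene or a neighbour: the enhancers of the alpha-globin genes, which sit in introns of Nprl3, are a textbook case.

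Sequences of the regions that carry the motif results come first. They were read from the mm10 assembly (RefSeq GRCm38.p6), 5′ to 3′, on the strand on which the motif reads as named. The following regions hold the E-box–GATA composite, searched as CTG, 7 or 8 bases and AGATAA, with CTG and AGATAA in capitals. They are 4 of the strongest members with the composite, chosen after their values were seen, with members of Nprl3 and Kit and the member farthest from any start, which lies in Gpc5. The summit is shown with 50 bases on either side, or with 100 where the composite lies outside the shorter window.
Cdk19, chr10:40451931-40452031, minus strand: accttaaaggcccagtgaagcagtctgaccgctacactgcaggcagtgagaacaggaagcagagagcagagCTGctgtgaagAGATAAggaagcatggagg
Carm1, chr9:21558437-21558537, minus strand: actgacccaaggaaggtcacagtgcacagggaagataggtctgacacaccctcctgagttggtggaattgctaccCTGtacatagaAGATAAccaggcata
Mrtfa, chr15:81027464-81027664, plus strand: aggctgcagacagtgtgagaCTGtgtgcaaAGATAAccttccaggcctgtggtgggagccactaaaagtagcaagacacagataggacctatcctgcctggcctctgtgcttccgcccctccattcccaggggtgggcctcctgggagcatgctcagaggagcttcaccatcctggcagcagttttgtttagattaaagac
Lrpprc, chr17:84776738-84776838, plus strand: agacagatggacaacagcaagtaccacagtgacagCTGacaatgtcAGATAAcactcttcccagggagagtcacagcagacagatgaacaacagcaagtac
Nprl3, chr11:32245698-32245898, plus strand: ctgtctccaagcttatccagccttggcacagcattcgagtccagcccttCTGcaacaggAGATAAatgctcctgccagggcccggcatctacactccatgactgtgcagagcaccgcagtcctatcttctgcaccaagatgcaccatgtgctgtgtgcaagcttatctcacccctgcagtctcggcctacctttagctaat
Kit, chr5:75608074-75608274, plus strand: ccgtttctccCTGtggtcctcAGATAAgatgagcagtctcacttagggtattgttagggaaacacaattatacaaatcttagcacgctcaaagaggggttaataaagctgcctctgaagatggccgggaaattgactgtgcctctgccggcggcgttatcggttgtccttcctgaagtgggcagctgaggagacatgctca
Gpc5, chr14:115979334-115979534, plus strand: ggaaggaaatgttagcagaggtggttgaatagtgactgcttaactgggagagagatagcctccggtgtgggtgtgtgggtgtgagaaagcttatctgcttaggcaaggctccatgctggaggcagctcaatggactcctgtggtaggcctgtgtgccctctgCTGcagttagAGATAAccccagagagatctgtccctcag

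In these windows the centre of the composite lay 7 bases from the summit in Lrpprc, 29 bases in Cdk19, 33 bases in Carm1, 43 bases in Nprl3, 69 bases in Gpc5, 72 bases in Mrtfa and 82 bases in Kit. The spacer was 7 bases in Mrtfa, Nprl3 and Gpc5 and 8 bases in Cdk19, Carm1, Lrpprc and Kit. Cdk19 encodes a kinase of the Mediator complex, Carm1 an arginine methyltransferase, Mrtfa a coactivator of serum response factor, Lrpprc a mitochondrial RNA-binding protein, Kit the receptor of stem cell factor and Gpc5 a cell-surface glypican.

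Some members of other red cell genes held AGATAA, in capitals below, without the composite. Others lacked it. AGATAA was absent within 100 bases of the summit in the strongest members of Slc2a1, Runx1, Klf13, Bcl11a and Alas2. The same held for those of Slc25a37, Steap3, Igf1r, Prkce and Atg7. The strongest members of Xk and Bmpr2 held it and are not shown. Cd47 encodes a surface protein that protects red cells from engulfment, Ranbp10 a microtubule-binding protein, Ube2o an enzyme that clears ribosomes from reticulocytes, Zfpm1 the GATA1 cofactor FOG1 and Bcl11a a repressor of embryonic and fetal globin genes. Ahi1 neighbours Myb.
Cd47, chr16:49907483-49907583, plus strand: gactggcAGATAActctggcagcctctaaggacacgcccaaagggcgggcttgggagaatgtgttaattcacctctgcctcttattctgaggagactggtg
Ranbp10, chr8:105801650-105801750, minus strand: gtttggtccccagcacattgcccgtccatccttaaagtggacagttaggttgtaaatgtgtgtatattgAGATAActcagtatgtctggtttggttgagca
Nprl3, chr11:32250997-32251097, plus strand: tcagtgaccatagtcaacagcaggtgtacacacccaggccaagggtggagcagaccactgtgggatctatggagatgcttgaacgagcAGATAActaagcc
Ube2o, chr11:116549389-116549489, minus strand: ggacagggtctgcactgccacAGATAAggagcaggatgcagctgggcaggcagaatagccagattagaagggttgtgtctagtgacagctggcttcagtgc
Ahi1, chr10:21054888-21054988, minus strand: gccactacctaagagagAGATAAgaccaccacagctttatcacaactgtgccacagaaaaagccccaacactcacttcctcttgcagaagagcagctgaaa
Zfpm1, chr8:122294313-122294413, minus strand: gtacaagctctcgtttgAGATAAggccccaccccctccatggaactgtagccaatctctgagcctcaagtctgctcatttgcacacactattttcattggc
Bcl11a, chr11:24148689-24148789, plus strand: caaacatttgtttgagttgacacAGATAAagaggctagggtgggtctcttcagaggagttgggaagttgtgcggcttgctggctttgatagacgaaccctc
Zfpm1, chr8:122313450-122313550, minus strand: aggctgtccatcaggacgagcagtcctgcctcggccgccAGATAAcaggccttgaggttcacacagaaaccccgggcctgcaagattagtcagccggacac

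The CTCF core, searched by its name as a 12-base degenerate sequence, is shown in capitals in 4 of the strongest members that hold it, chosen after their values were seen. They lie in Ttc21a, which encodes a protein of ciliary transport, Ltn1, a ubiquitin ligase of ribosome quality control, Ssc5d, a soluble scavenger receptor, and Limk2, a kinase of actin remodelling.
Ttc21a, chr9:119963421-119963521, plus strand: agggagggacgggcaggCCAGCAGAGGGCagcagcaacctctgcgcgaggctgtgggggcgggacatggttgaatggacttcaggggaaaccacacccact
Ltn1, chr16:87405160-87405260, minus strand: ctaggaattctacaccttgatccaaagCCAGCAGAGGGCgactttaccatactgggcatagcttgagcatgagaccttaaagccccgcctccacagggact
Ssc5d, chr7:4943306-4943506, plus strand: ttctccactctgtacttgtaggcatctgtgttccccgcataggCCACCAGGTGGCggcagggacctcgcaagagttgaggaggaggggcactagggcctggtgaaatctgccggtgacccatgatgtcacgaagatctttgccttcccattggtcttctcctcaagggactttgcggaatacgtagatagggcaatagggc
Limk2, chr11:3387228-3387328, plus strand: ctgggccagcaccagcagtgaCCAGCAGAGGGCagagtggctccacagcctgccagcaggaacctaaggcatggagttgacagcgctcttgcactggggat

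The centre of the core lay 17 bases from the summit in Ltn1, 23 bases in Limk2, 27 bases in Ttc21a and 51 bases in Ssc5d.

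Deep intronic sequence, defined by the same rule base by base, made up 692.6 Mb or 25.4% of the genome and held 4.50 members per Mb. Near intronic sequence, over 1 kb and at most 10 kb from a coding TSS, held 10.2 regions per Mb, intergenic sequence over 10 kb from every coding TSS held 2.10 per Mb and promoters, within 1 kb of a coding TSS, held 147.1 per Mb. Deep introns thus stood between their near counterparts and distant intergenic sequence. In each replicate's own list the order was the same, with 2.44 and 3.00 regions per Mb in deep introns (2.72 ± 0.40, mean ± SD, n = 2), 5.63 and 6.56 in near introns and 1.14 and 1.39 in distant intergenic sequence. A replicate's own list held 1688 deep intronic regions in replicate 1 and 2077 in replicate 2, which was 12.05% and 13.3% of all regions of that list (12.7 ± 0.92%).

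Density declined with distance from the nearest coding TSS. Members numbered 8.23 per Mb of deep intronic sequence at 10 to 20 kb, 5.76 at 20 to 50 kb, 3.27 at 50 to 100 kb, 1.79 at 100 to 200 kb and 0.635 over 200 kb. Both replicates' own lists showed the same order at every step, and their values at 10 to 20 kb were 4.43 and 5.49 per Mb against 0.295 and 0.386 over 200 kb. The median member lay 25.9 kb from a coding TSS, with quartiles of 15.9 and 46.7 kb. The nearest coding TSS was that of a host gene for 2431 members, or 78.0% (76.6 to 79.5%), against 79.8% of a grid of every 5000th deep intronic base. AGATAA did not decline step by step: it was in 29.5% of members at 10 to 20 kb (26.9 to 32.1%), 29.02% at 20 to 50 kb, 27.8% at 50 to 100 kb, 33.5% of the 191 members at 100 to 200 kb (27.2 to 40.5%) and 19.6% of the 56 members over 200 kb (11.3 to 31.8%). The intervals of the first bin and the last overlapped.

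**Figure D1:**
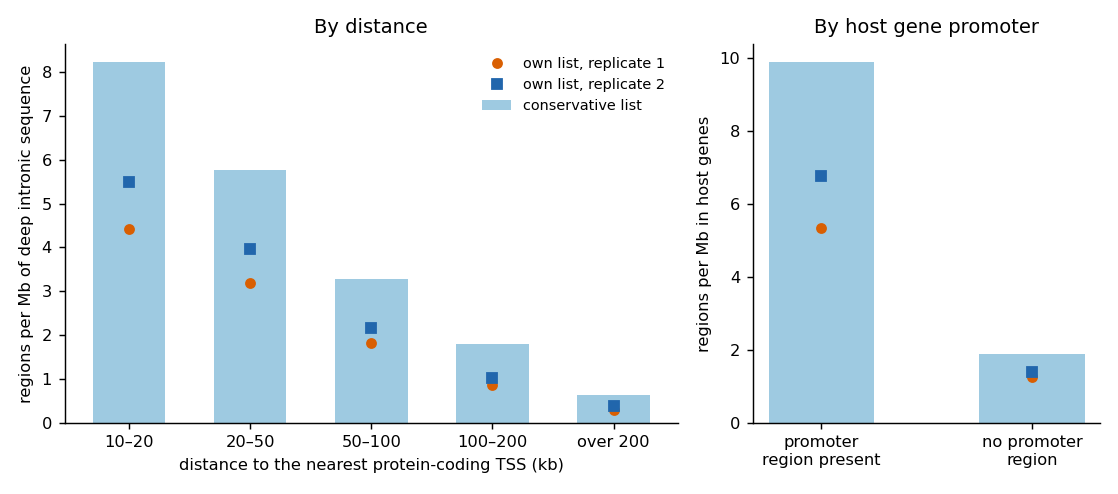
Left, deep intronic regions per Mb of deep intronic sequence (y axis) by distance to the nearest protein-coding TSS in kb (x axis); right, the same by whether the host gene had a promoter region. Bars are the conservative list and points each replicate's own list; the bars decline from 8.23 to 0.635 per Mb with distance, and host genes with a promoter region stand at 9.90 per Mb, against 1.90 without one.

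Members were concentrated in host genes whose own promoter was accessible. A gene was counted as having a promoter region when a region of the list overlapped 1 kb on either side of any of its coding TSS. Of 11424 protein-coding genes with any deep intronic sequence, 1870 held a member, which is 16.4%. The share was 23.6% of the 5520 genes with a promoter region (22.5 to 24.8%) and 9.59% of the 5904 genes without one (8.86 to 10.4%). Counted per length, genes with a promoter region held 9.90 members per Mb and genes without one 1.90, a ratio of 5.21. The ratio was 4.22 in replicate 1's own list and 4.86 in replicate 2's, where both promoters and members came from that list alone. The direction was also the same in each of 4 classes of deep intronic length per gene. Genes with 50 to 200 kb of it held 11.1 members per Mb with a promoter region against 2.54 without, and genes with over 200 kb held 5.46 against 0.977. Members of overlapping genes count in each host here.

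Within genes, members lay close to the layout of deep intronic sequence in intron number and relative position, but in shorter introns and genes. The first intron of the transcript with most exons held 21.6% of 3058 placed members (20.2 to 23.1%), against 20.05% of the grid of deep intronic bases, and the median member lay 54.2% of the way along its gene, against 53.5% for the grid. The introns that held members were shorter than the grid's, with a median of 19.0 kb against 37.7 kb, and so were the genes, with a median of 102.0 kb against 224.2 kb. The median distance to the nearer edge of the intron was 3.72 kb against 7.95 kb. In 98 cases a member lay in more than 1 protein-coding gene, and the shortest gene was then taken as the host.

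A single member was found in 1180 host genes, 2 members in 388 genes, 3 to 5 in 259 and 6 or more in 43. The gene models with most members included several that span other genes: Gm20388 on chromosome 8 covers 4435 kb and held 38 members, of which 9 lay in no other coding gene, Fgfr2 on chromosome 7 covers 2961 kb in this annotation and held 15, and Gm37240 on chromosome 3 held 9. Among the other leading hosts, Gse1, a subunit of a histone demethylase complex, held 17 members (15 and 16 in the own lists of replicates 1 and 2) at 58.0 per Mb of its deep intronic sequence. Nav2, a cytoskeletal regulator, held 15 (11 and 7), Rere, a nuclear receptor corepressor, 12 (9 and 10) and Igf1r, the receptor of insulin-like growth factor 1, 9 (4 in each). Abcc4, Fbxl17, Itpr2, Prkce, Sgms1 and Stk24 held 8 members each. The ratio of members to length was uneven among them, at 99.3 per Mb in Stk24 and 17.6 per Mb in Prkce.

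The nearest other region of any class was a median of 14.6 kb away from a member, against 5.99 kb for near intronic regions and 17.6 kb for distant intergenic ones. Another member lay within 10 kb for 918 of them, or 29.5%, in 406 groups, 22 of which held 4 members or more. Groups of 6 were found in 25.8 kb of Kalrn, in 28.5 kb of Ccdc6 and in 36.1 kb of Zfpm1. Chromosome X held 1.27 members per Mb of its deep intronic sequence, chromosome 6 held 3.39, the lowest of the autosomes, and chromosome 12 held 6.21, the highest. The line is male, and these densities were not adjusted for the number of copies of a chromosome.

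Support in each replicate was weaker than for promoters. Of the 3115 members, 1290 were called in both replicates' own thresholded lists with at least 50% of the shorter region shared, which is 41.4% (39.7 to 43.2%), against 60.7% of all 20080 regions. A further 8.35% of members were called in replicate 1 only, against 6.16% of all regions, and 17.4% in replicate 2 only, against 11.7%. Neither own list held 32.8% of members, against 21.4% of all regions. The intervals overlapped with near intronic regions, of which 42.9% were called in both (40.8 to 44.95%), and distant intergenic regions, with 43.6% (41.8 to 45.3%), while promoters stood at 80.7% (79.9 to 81.5%). The conservative list draws on both replicates together, so a member called in neither own list still passed when the replicates were compared.

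In the longer ranked lists, made before thresholding, 3009 members had a peak in replicate 1 and 3060 in replicate 2, and 2964 had one in both. The median −log10 p of the strongest overlapping peak was 16.3 in replicate 1 and 18.5 in replicate 2 for members, against 38.4 and 43.3 for promoters. The median ratio of replicate 2 to replicate 1 was 1.14 for members, with quartiles of 0.968 and 1.35, and 1.11 for promoters. The shift toward replicate 2 was thus of about the same size in both classes.

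**Figure D2:**
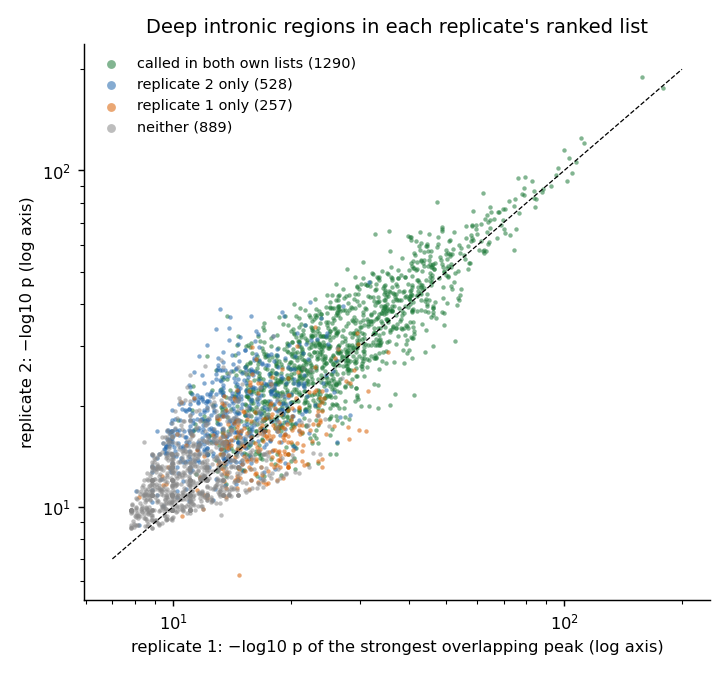
Each point is a member with a peak in both ranked lists (2964), with replicate 1 on the x axis and replicate 2 on the y axis (−log10 p, log scales), coloured by which thresholded own lists hold it; the dashed line marks equal values. Members called in both lists fill the upper right and members called in neither the lower left, and the median ratio of replicate 2 to replicate 1 is 1.14.

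Members were narrower and of lower signal than promoters, and close to the other intronic and intergenic classes. The median width was 428 bp (quartiles 315 and 568), against 600 bp for promoters, and the median of the depositors' signal value was 9.56 (7.87 and 11.98), against 12.9. Near intronic regions had medians of 410 bp and 8.61, distant intergenic regions 425 bp and 9.95, and all regions 496 bp and 10.7. The median GC content of the summit with 100 bases on either side was 51.2%, against 63.7% in promoters, with 3 CpG against 16. The median GC content was 52.2% in near intronic and 51.7% in distant intergenic regions. The summit fell in repeat-masked sequence in 8.96% of members, against 3.89% of promoters. Near intronic regions stood at 8.09% and distant intergenic regions at 8.38%.

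AGATAA was found in more members than any other site searched. Within 100 bases of the summit, on either strand, it was in 907 members or 29.1% (27.5 to 30.7%). Flanks were 5547 equally wide windows, 1 kb to either side of a summit and free of peaks, and 11.1% of them held it (10.3 to 11.96%). Near intronic regions held it at 27.2% (25.4 to 29.1%), distant intergenic regions at 24.2% (22.7 to 25.7%), promoters at 4.18% and all 20080 regions at 15.4%. The interval for members overlapped that of near intronic regions and lay above that of distant intergenic ones. In the own lists of replicates 1 and 2 the shares were 32.5% and 30.9% of members (31.7 ± 1.18%, n = 2) and 25.5% and 23.4% of distant intergenic regions (24.5 ± 1.498%). A second copy was rare: 785 members held 1 copy, 116 held 2 and 6 held 3 or more. TGATAA was in 19.97% of members against 9.36% of flanks. The related form, AGATAG, was in 14.96% against 9.19%. Near intronic regions held TGATAA at 17.5% and AGATAG at 14.98%, and distant intergenic regions at 14.97% and 12.6%. All regions held them at 10.2% and 9.12%. At least 1 of the 3 forms was in 52.4% of members, a share that was not counted in flanks or other classes.

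The composite of E-box and GATA letters was in 198 members, or 6.36% (5.55 to 7.27%), against 0.397% of flanks, a ratio of 16.03. It was in 5.78% of near intronic regions, 5.29% of distant intergenic regions, 0.653% of promoters and 3.21% of all regions. In the replicates' own lists it was in 7.88% and 7.61% of members (7.74 ± 0.19%, n = 2). The distance between the 2 sites was narrow. When CTG and GATAA were searched at every spacing from 0 to 20 bases, 234 members held the pair at 9 bases (7.51%, 6.64 to 8.49%), 133 at 8 bases (4.27%) and 88 at 10 bases (2.83%). Each of the 18 other spacings was in 0.546% to 2.38% of members, and flanks held each spacing in 0.343% to 1.01%. The count at 9 bases includes the composite with 8 bases before AGATAA. Members with the composite were wider than members as a whole, with a median of 553.5 bp against 428 bp, and 58.1% of them were called in both own lists (51.1 to 64.7%), against 41.4% of all members. The sequences above show this arrangement in Kit and Lrpprc, among others.

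**Figure D3:**
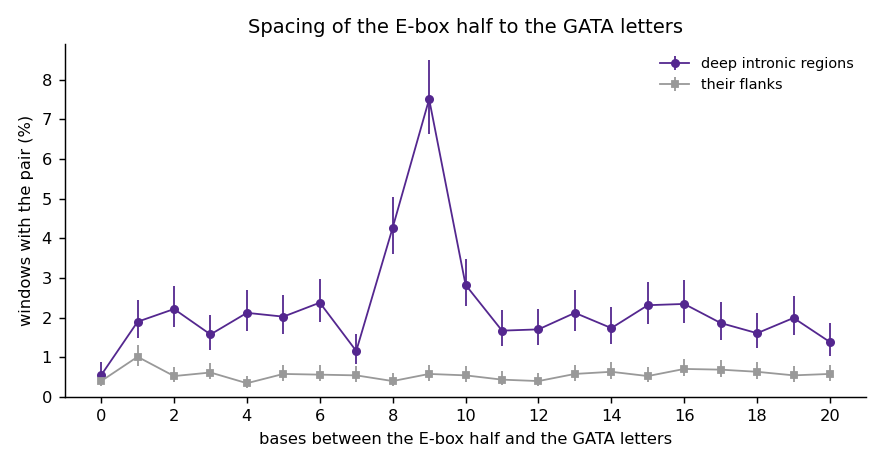
Share of windows of 100 bases on either side of the summit (y axis, %) that hold CTG and GATAA at each number of bases between them (x axis) in deep intronic regions and in their flanks; bars are 95% Wilson intervals. Members peak at 9 bases with 7.51%, with 4.27% at 8 bases, and the flanks stay at or below 1.01% throughout.

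Each of the other sites searched was in fewer members than AGATAA. CCACACCC, the site of KLF1, was in 6.90% (6.06 to 7.85%) against 1.39% of flanks, and in 5.18% of all regions. GCTGANTCA, the longer AP-1 form that NF-E2 binds, was in 5.46% against 0.703%, and the shorter TGANTCA, which includes it, in 11.3% against 5.68%. TGTGGT, bound by RUNX factors, was in 23.9% against 15.4%, and CAGGAAG, an ETS form, in 14.8% against 6.81%. Near intronic regions held CCACACCC at 7.21%, GCTGANTCA at 5.22%, TGANTCA at 11.4%, TGTGGT at 23.5% and CAGGAAG at 14.1%. Distant intergenic regions held them at 5.61%, 6.34%, 12.04%, 19.2% and 14.6%, in the same order. All regions held the last 4 at 3.19%, 7.24%, 15.3% and 12.04%. The other ETS form, CCGGAAG, was in 1.67% of members against 0.667% of flanks, and in 19.3% of promoters and 10.8% of all regions. The GC box CCGCCC was in 10.2% of members against 2.25% of flanks, and in 61.7% of promoters and 36.6% of all regions. AAATCAC, a GFI1 form, was in 1.38% of members against 2.83% of flanks, and in 1.21% of all regions. CAGATG was in 18.3% against 15.1%, and CAGCTG in 18.6% against 9.90%. Near intronic regions held these 2 at 16.6% and 18.5%, and all regions at 12.2% and 14.6%. The estrogen response element was in 2 members, or 0.0642%, against 0.0180% of flanks and 0.0199% of all regions. In 709 members, or 22.8%, none of the GATA forms, the CTCF core, the shorter AP-1 form, the RUNX letters and the CAGGAAG form was found. The other sites searched were not part of that count, which was made for members only and not for flanks or other classes.

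**Figure D4:**
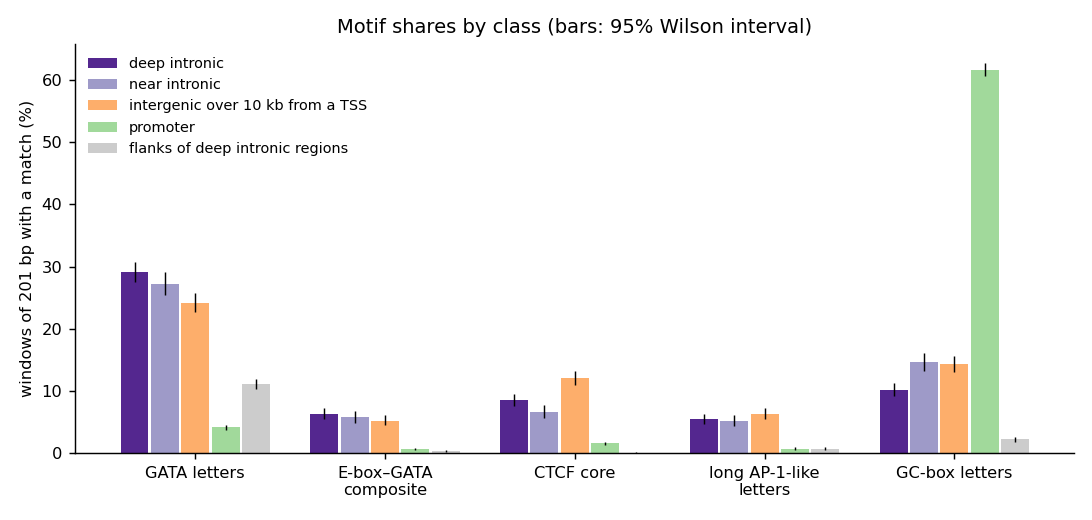
Share of windows of 100 bases on either side of the summit (y axis, %) that hold each site (x axis), for deep intronic regions, near intronic regions, intergenic regions over 10 kb from a TSS, promoters and the flanks of deep intronic regions; lines are 95% Wilson intervals. GATA letters stand at 29.1% in deep introns and 4.18% in promoters, and GC-box letters at 10.2% and 61.7%.

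A count of all hexamers, made with no list of sites, gave most of the top ranks to GC-rich words. Hexamers in at least 5% of members were ranked by their ratio to the flanks. Of the 10 highest, 8 were GC-rich and held a CpG, led by CCGCCC with a ratio of 4.53. GATAAG followed CCGCCC, in 23.9% against 5.97% (ratio 4.003), and AGATAA was the last of the 10 with 2.62. CpG-rich windows, with at least 50% GC and an observed to expected CpG of at least 0.6, were nevertheless few: 69 members, or 2.22%. Their median signal was 12.3, against 9.52 for the rest. AGATAA was in 10.1% of them (5.002 to 19.5%), against 29.5% of the rest (28.0 to 31.2%), and 69.6% were called in both own lists, against 40.8%.

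The CTCF core was in 265 members, or 8.51% (7.58 to 9.54%), against 0.144% of flanks. Distant intergenic regions held it at 12.1% (10.98 to 13.3%), near intronic regions at 6.70% (5.72 to 7.84%), promoters at 1.60% and all regions at 5.84%. It sat near the summit: 95.6% of the 272 matches within 200 bases of a summit had their centre within 50 bases, against 50.99% of the composites and 36.3% of the AGATAA matches. It seldom occurred with GATA letters, in 27 members, so that 2.98% of members with AGATAA held it (2.05 to 4.30%) and 10.8% of members without (9.55 to 12.1%). Members with the CTCF core were narrow, with a median width of 303 bp against 441 bp for the rest. Their median signal was 9.54 against 9.56, yet 22.3% were called in both own lists (17.7 to 27.6%), against 43.2% of the rest (41.4 to 45.0%). Their median −log10 p was 14.3 in replicate 1 and 15.7 in replicate 2, against 16.5 and 18.9 for the rest. The own lists held the core in 6.28% and 6.07% of their deep intronic regions.

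Motif content changed with signal for some sites and little for others. In deciles of members by signal, AGATAA was in 30.4% of the weakest (25.6 to 35.8%) and 26.9% of the strongest (22.3 to 32.1%), with overlapping intervals throughout. The CTCF core was in 2.88% of the weakest decile (1.52 to 5.39%), 11.9% of the sixth from below (8.76 to 15.97%) and 5.45% of the strongest (3.43 to 8.55%). CpG-rich windows were 1.28% of the weakest decile and 6.41% of the strongest. The share called in both own lists was 5.45% in the weakest decile and 94.2% in the strongest.

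The 10 members of largest signal held neither AGATAA nor the CTCF core, and most had copies of part of their sequence elsewhere. The search counted 32-base words within 50 bases of the summit that occur at another place of the assembly. Of the 10 members, 8 had at least 1 such word, against 183 of the other 3105 members, or 5.89%. At the strongest member, in Gnb1l at chr16:18533126-18533396, all words occurred elsewhere. Its signal was 46.6, with −log10 p of 178.9 in replicate 1 and 175.9 in replicate 2. Of the 16-base words within 100 bases of its summit, 66.1% were in Rn18s-rs5, an annotated copy of 18S ribosomal RNA on chromosome 17. Peak1 had 85.7% of its 32-base words elsewhere (signal 35.7, −log10 p 95.5 and 96.96) and Gphn 57.1% (28.1, 42.8 and 58.0). The summit in Peak1 lay 0.039 kb from a noncoding TSS, in a CpG-rich window. Spice1 with a signal of 30.0, Fgfr2 with 30.0, Mnd1 with 24.7 and Nedd4l with 24.6 had between 7.14% and 17.1%, and Il1rapl1 with 25.8 and Mtf1 with 24.5 had none. The member in Nedd4l shared 43.0% of its 16-base words with the mitochondrial genome, and 3 members of lower signal shared at least 20%, in Tbx20 (24.7%), Zfp804b (22.6%) and Myo3a (98.4%). Averaged over its peak-free flanks, no member reached 20% with either source. Flanks that overlapped a peak were left out, so members with none left could not be assessed. The member in Myo3a was 2934 bp wide, the widest of all, with a signal of 5.23 and −log10 p of 107.1 and 106.3. Whether reads from the other copies contributed to these signals was not tested. The summit sequences in Gnb1l and Myo3a are shown because they carry these matches, with capitals for bases inside a 16-base word shared with Rn18s-rs5 or with the mitochondrial genome.
Gnb1l, chr16:18533212-18533312, plus strand: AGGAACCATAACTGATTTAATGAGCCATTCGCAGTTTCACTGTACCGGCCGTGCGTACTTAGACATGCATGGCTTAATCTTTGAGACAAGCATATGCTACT
Myo3a, chr2:22587994-22588094, plus strand: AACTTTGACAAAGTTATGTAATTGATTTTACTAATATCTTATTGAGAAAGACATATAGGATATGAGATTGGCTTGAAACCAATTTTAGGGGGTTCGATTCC

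Both windows were in capitals throughout. Over all members, 191 had a 32-base word elsewhere, or 6.13% (5.34 to 7.03%), against 10.4% of distant intergenic regions (9.39 to 11.5%), 4.35% of near intronic regions and 2.96% of promoters. In the strongest decile the share was 11.2% (8.18 to 15.2%).

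**Figure D5:**
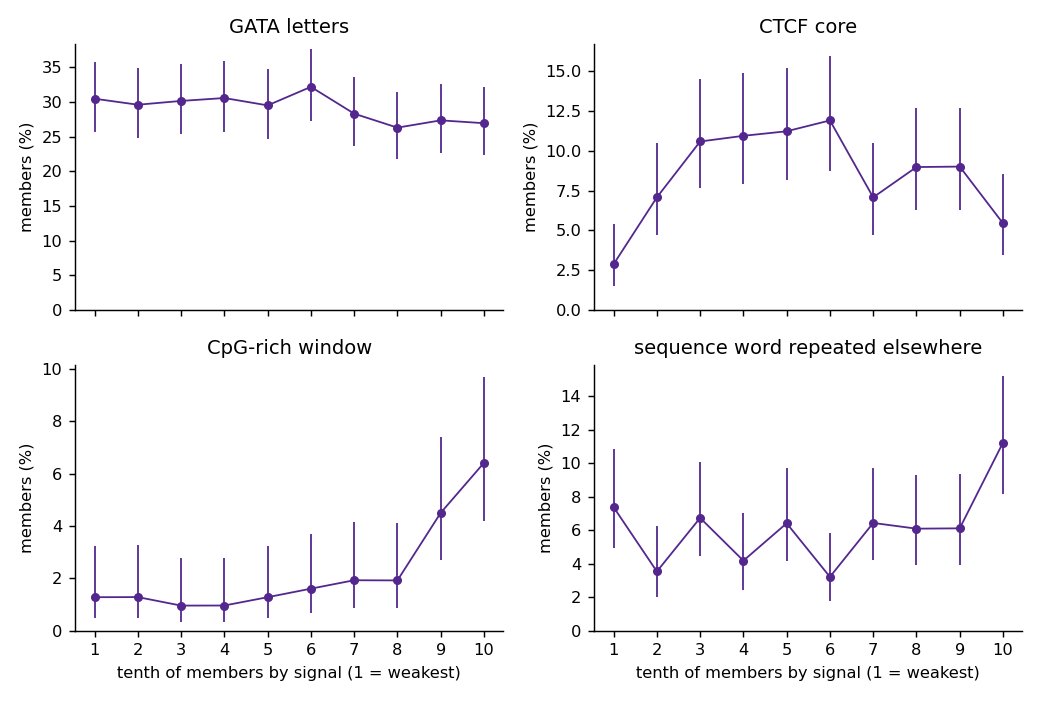
Share of members (y axis, %) with the GATA letters, with the CTCF core, with a CpG-rich window and with a 32-base word that recurs elsewhere in the assembly, in 10 equal groups of members by signal (x axis, weakest on the left); bars are 95% Wilson intervals. GATA letters stay between 26.3% and 32.2%, the CTCF core is highest in the middle with 11.9%, and the last 2 measures are highest in the strongest group, with 6.41% and 11.2%.

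Lists of genes of the red cell and of other cell types were set beside the 16.4% of all genes with deep intronic sequence that held a member. Erythroid transcription factors and cofactors held 28 members in 10 of 15 genes, at 19.1 per Mb, and erythroid receptors and signalling genes 38 members in 11 of 17 genes, at 18.2 per Mb. Red cell membrane and cytoskeleton genes held 9 members in 6 of 19 genes (16.9 per Mb), heme and iron genes 3 in 3 of 13 (15.5 per Mb) and genes of maturation and autophagy 5 in 3 of 9 (11.3 per Mb). Chromatin regulators held 8 members in 6 of 20 genes, at 9.56 per Mb. The corresponding value over all genes was 4.56 per Mb. The lists of other cell types stood at that value or lower, with 1 member in 1 of 6 myeloid and mast cell genes (4.56 per Mb), 5 in 4 of 14 lymphoid genes (2.48 per Mb), 8 in 3 of 11 long muscle genes (1.16 per Mb) and 25 in 11 of 20 long neuron genes (0.981 per Mb). The neuron genes show how length enters the count of genes, since 11 of 20 held a member although their density was the lowest. Density itself also fell with deep intronic length. Over all genes with at most 10 kb it was 13.0 per Mb with a promoter region and 5.59 without. Over all genes with more than 200 kb it was 5.46 and 0.977 per Mb. The lists were not matched for length or promoter state. In the replicates' own lists the transcription factors had 14.3 and 15.7 members per Mb, against 0.510 and 0.432 for the neuron genes. The single myeloid member was in both own lists, which gives 4.56 per Mb in each, above the 2.48 and 3.04 per Mb over all genes there. The red cell and chromatin lists, which were denser, also had a larger share of genes with a promoter region. It was present in 10 of the 15 transcription factor genes, 13 of 17 signalling genes and 16 of 19 membrane genes. The same held for 12 of 13 heme and iron genes, 9 of 9 maturation genes and 18 of 20 chromatin regulators. In the other lists 1 of 6 myeloid, 3 of 14 lymphoid, 3 of 11 muscle and 2 of 20 neuron genes had one. Among the red cell lists above the share rose as density fell, but the globin enhancer hosts Nprl3, Hbs1l and Ahi1 stood outside that order. They held 5 members in 2 of 3 genes, at 30.1 per Mb, and all 3 had a promoter region. Whether promoter state accounts for the differences between lists was not tested.

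Nprl3, a subunit of the GATOR1 complex, held 2 members, both called in both own lists. The member at chr11:32245468-32246037, in the intron numbered 6, had a signal of 14.0 and −log10 p of 34.8 in replicate 1 and 39.2 in replicate 2, and holds the composite shown above. The other, at chr11:32250844-32251295, had a signal of 13.6 and −log10 p of 31.5 and 34.5, with AGATAA and TGANTCA. Their nearest coding TSS were those of Mpg, at 19.3 kb, and of Nprl3, at 16.5 kb.

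Zfpm1 held 6 members over 36.1 kb, all of which also lie in the long model Gm20388. Signals ranged from 4.25 to 9.43. The strongest, at chr8:122321449-122322045, had −log10 p of 48.9 in replicate 1 and 41.8 in replicate 2 and held no AGATAA. Those letters were in 2 of the 6, at chr8:122294178-122294656 (signal 9.03, −log10 p 36.6 and 43.1) and at chr8:122313265-122313777 (signal 4.25, 12.2 and 14.8), and their sequences are shown above. Each own list held 4 of the 6.

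Bcl11a held 4 members, all in the intron numbered 2, which spans 72.6 kb. The strongest by signal, at chr11:24094009-24094474, had a signal of 13.5 and −log10 p of 30.8 in replicate 1 and 28.5 in replicate 2. The member at chr11:24129528-24130634, 49.3 kb from the nearest TSS, was the widest at 1107 bp, with a signal of 9.14 and −log10 p of 35.3 and 35.9. Both were called in both own lists. The other members, at chr11:24100470-24100996 and chr11:24148568-24149056, had signals of 5.38 and 8.43 and were called in neither own list, and AGATAA was found in the second of them.

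Runx1, which encodes a transcription factor of blood stem cells, held 4 members. The members at chr16:92801550-92802211 and chr16:92764745-92765255 lie in the intron numbered 2, with signals of 15.04 and 13.2, and were called in both own lists. Their −log10 p were 44.8 and 51.8, and 23.4 and 31.0, in replicates 1 and 2. The members toward the end of the gene, in the introns numbered 6 and 7, were weaker, with signals of 11.2 and 9.62 and −log10 p of 17.6 and 22.9, and of 14.1 and 13.8. AGATAA was in the member at chr16:92764745-92765255.

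Kit held 3 members. At chr5:75607909-75608543, in the intron numbered 2, the signal was 8.65 and −log10 p 14.6 in replicate 1 and 15.96 in replicate 2. This region holds the composite shown above. The member at chr5:75624076-75624654 had a signal of 11.6 and −log10 p of 12.9 and 25.5, so that the replicates were far apart there. The third, at chr5:75589592-75589891, in the intron numbered 1, had a signal of 8.82 and −log10 p of 14.6 and 12.1 and was called in replicate 1 only.

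Other red cell genes held members of mixed support. Alas2, the erythroid enzyme that starts heme synthesis, had a member with a signal of 15.6 at chrX:150564611-150565342 and −log10 p of 31.9 in replicate 1 and 45.4 in replicate 2, in an interval where the gene model of Apex2 overlaps it. Slc25a37, the mitochondrial iron importer, had one with a signal of 12.3 (27.5 and 29.5), where all 32-base words around the summit also occur elsewhere, and Steap3, an iron reductase, one with a signal of 5.73 (9.22 and 14.4) that neither own list held. Klf13, a Krüppel-like factor, had a CpG-rich strongest member, 0.527 kb from a noncoding TSS, with a signal of 14.1 (61.3 and 69.5). Cd47 had one with a signal of 14.95 (59.4 and 67.2), Slc2a1, a glucose transporter, one with 10.3 (18.5 and 18.7), and Xk, which carries a blood group antigen, one with 11.6 (16.7 and 22.7) that neither own list held and with 21.4% of its words elsewhere. Among signalling genes, the strongest members of Igf1r, Prkce, a protein kinase C, and Bmpr2, a BMP receptor, had signals of 16.3, 14.8 and 12.4. Those of Ranbp10, Ube2o and Atg7, an autophagy enzyme, had 14.4, 12.8 and 10.3, and that of Ahi1 had 10.997. Neither own list held the member of Atg7 (−log10 p 15.6 in replicate 1 and 16.7 in replicate 2). The member of Ahi1 was called in replicate 2 only (15.3 and 23.3). The summit in Ube2o lay 0.979 kb from a noncoding TSS.

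Signals just over and just under the 10 kb threshold covered similar ranges. The 3 members just over it lay 10.011 kb from a coding TSS in Impad1 (signal 12.6), 10.019 kb in Gm3448 (6.66) and 10.021 kb in Zdhhc6 (13.4). The 3 intronic regions just under it lay 10.000 kb away in Fryl (9.02), 9.983 kb in Mrps28 (12.4) and 9.977 kb in Cdkl4 (11.1). The member farthest from any coding TSS, 886.8 kb away in Gpc5, had a signal of 8.27 and −log10 p of 13.0 in replicate 1 and 15.7 in replicate 2, was called in neither own list and holds the composite. The 3 members of smallest signal, in Stx7 (2.16), Pigk (2.48) and Stk24 (2.53), each had a peak in the ranked list of 1 replicate only. Starts of noncoding genes were close to a few members: 76 lay within 1 kb of such a TSS, or 2.44%, and 102 lay inside a noncoding gene. These counts were made for members only and left out noncoding transcripts of coding genes. With the TSS of every annotated transcript, 1832 of the 3115 members lay over 10 kb from each.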

How the data were processed

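ATAC-seq was made from 2 biological replicates of 1 group, per the labels. The authors deposited peak lists in narrowPeak layout on mm10, with a signal value and a −log10 p for each peak; no source used here names the aligner or the peak caller. They made the conservative list from both replicates by the irreproducible discovery rate, per the file names deposited, and a thresholded and a longer ranked list for each replicate. No file used here gives read counts, so depth is unknown and no interval reflects it.

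Overlapping peaks on 21 chromosomes were merged, the summit of largest signal standing for the region, and placed with GENCODE vM21 gene models. Windows and flanks were read from the mm10 assembly (RefSeq GRCm38.p6) with pysam 0.24.0, and intervals are Wilson intervals at 95%. Regions of a library are not replicates, so shares are set side by side with each replicate's value and no test between classes was made. The −log10 p of a replicate is that of the strongest overlapping peak in its own ranked list, because the combined list does not name its replicate columns. Motif and interval functions were tested on simulated data. Named regions are the 10 of largest signal (1 of them is not reported here), the strongest in the genes of each list, every member of 5 genes, the 8 host genes with most members with those tied, and those next to the thresholds or at the extremes; sequences of the strongest motif members, and the search for repeated words, were chosen after values were seen. The members and lists were chosen with earlier results of these data known. Alternatives varied the peak list, signal, distance, annotation, summit, overlap and window, and left out each replicate.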

Additional observations from a re-analysis of the deposited data

How the results depend on the processing

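Of 55 alternative values, 22 stayed within their limit and 33 moved by more. The limit was 1.5 times for the number of regions, 1 SD between the replicates for the share of all regions and the motif shares, and the 95% Wilson interval of the reported value for the share called in both own lists and the first-intron share. The number of deep intronic regions was 1688 to 2077 when 1 replicate's own list was used in turn, 1146 with a signal at or above the median of all regions, 1941 over 20 kb from every coding TSS and 1832 over 10 kb from the TSS of every annotated transcript. Their share of all regions was 12.05 to 13.3% with 1 replicate left out, 11.4% with the signal limit, 20.2% over 5 kb, 9.67% over 20 kb and 9.12% with every transcript's TSS. AGATAA was in 30.9 to 32.5% with 1 replicate left out, 27.3% with the signal limit, 17.2% within 50 bases of the summit and 40.7% within 200 bases. The composite was in 7.61 to 7.88% with 1 replicate left out, 7.59% with the signal limit, 6.57% over 5 kb, 6.59% over 20 kb, 3.53% within 50 bases and 7.83% within 200 bases. The CTCF core was in 6.07 to 6.28% with 1 replicate left out, 7.59% with the signal limit, 8.12% within 50 bases and 8.67% within 200 bases. The share called in both own lists was 38.9% in the list from pooled pseudoreplicates and 76.5% with the signal limit. The first intron held 23.6% when the longest coding transcript was used. Without regions that hold a 32-base word found elsewhere, an alternative chosen after seeing the data, AGATAA was in 30.3%, the composite in 6.63% and the CTCF core in 8.89%. A narrower or wider window holds fewer or more sites by construction, and the cause of the other shifts was not tested.

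No paired analysis was possible because both replicates belong to 1 group. With 2 replicates of 1 condition and no untreated cells, no value shows an effect of estradiol. Depth is unknown, so absence from a list does not show closed chromatin. The spread over 2 replicates is itself poorly known, and a shift counted as larger than it can still be small. Letters that match a motif are not evidence that a factor was bound.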

Other observations

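The strand of AGATAA relative to the host gene gave intervals for members and flanks that did not overlap. Among members with a single AGATAA, 332 of 785 carried it on the coding strand of the host, or 42.3% (38.9 to 45.8%), against 299 of 576 flanks with a single copy, or 51.9% (47.8 to 55.96%). The share was 42.7% in replicate 1's own list and 42.9% in replicate 2's, and 41.6% for members whose nearest TSS was that of the host. Near intronic regions stood at 48.3% (44.1 to 52.5%), an interval that overlaps that of members. The composite, which contains AGATAA, stood at 46.6% in members (39.7 to 53.7%) and 53.7% in near intronic regions (44.9 to 62.2%), both intervals including 50%. The other GATA forms gave 51.05% for TGATAA (46.96 to 55.1%) and 50.3% for AGATAG (45.6 to 55.04%). The RUNX letters TGTGGT were on the coding strand in 61.03% of members with a single copy (57.1 to 64.8%), against 58.9% of near intronic regions (54.2 to 63.4%) and 55.3% of flanks (51.8 to 58.7%), and the KLF1 letters CCACACCC in 36.5% (30.1 to 43.5%), against 41.3% of flanks (30.9 to 52.6%). The CTCF core stood at 44.9% (38.97 to 50.9%) and CAGGAAG at 46.02% (41.3 to 50.8%). Strand shares were computed for these 8 motifs after the data were seen, and no test was made. The cause of the strand shares was not tested.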
